A study of Brachypodium distachyon with 89 samples.

Results

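CAT1 (Bradi3g01470) and CAT2 (Bradi1g76330) are the catalase genes that the study of submerged Brachypodium distachyon named among transcripts with a changed daily pattern, and they are described here over all 30 groups of the experiment. They are 2 of the 24467 genes in the table, and each carries the symbol of its best match in Arabidopsis. Because the study chose the pair on these same libraries, their difference between S and LL is not independent evidence of its direction. Aboveground tissue was collected from ecotypes Bd21 and Bd21-3. Plants were 14 days old and had been raised in long days at 150 µE. Submerged plants (S) stood under water in tanks at 70 µE, low light controls (LL) stood at the same 70 µE in neighboring tanks without water, and normal growth controls (NG) stayed at the growth light level. Samples were taken at dawn (ZT0), midday (ZT8), dusk (ZT16), midnight (ZT20) and the second dawn (ZT24), and submergence had begun in the evening before ZT0. Each group had 3 libraries, each from a pool of 5 plants, but 2 libraries stand for Bd21 in LL at ZT24. Plants of one time shared a tank, so the effects of a tank and of its time cannot be told apart.

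Catalases are heme enzymes of the peroxisome that split hydrogen peroxide into water and oxygen. In leaves in the light, much of this peroxide comes from photorespiration, in which glycolate oxidase turns glycolate into glyoxylate, and further peroxide comes from the beta-oxidation of fatty acids. In Arabidopsis, CAT2 is the main leaf catalase of photorespiration, while CAT1 is best known from pollen and seeds and from responses to stress. Whether the Brachypodium genes have the same roles was not measured, and the names are used here as labels. The table holds 1 more catalase match, Bradi1g29800, whose best match is also Arabidopsis CAT2.

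The libraries held 3896851 to 16044727 reads. CAT1 was read 2378 to 42464 times per library and CAT2 406 to 15991 times, so counting error is small beside the spread between libraries. Values are CPM, read counts scaled by the authors to an effective library size. Gene lengths were not used here, so a CPM value of CAT1 cannot be set against one of CAT2 as an amount of transcript, and only changes are compared between genes. Reads that could have come from more than one catalase gene were not examined. Reads of both ecotypes were aligned to the Bd21 genome. Matches of leaf markers (8 genes, among them light-harvesting proteins) summed to 1244 to 21413 CPM in S, 16311 to 50970 CPM in LL and 25076 to 78965 CPM in NG. Guard cell marker matches (9 genes) summed to 22.6 to 47.0 CPM in S, 44.9 to 67.8 CPM in LL and 50.3 to 70.7 CPM in NG. The 2 root marker matches summed to at most 13.3 CPM in any library. Their part in the catalase results was not tested, and in such bulk tissue fewer cells of a type and less RNA per cell cannot be told apart.

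In undisturbed plants CAT2 was highest at midday in both ecotypes. In Bd21 in NG it stood at 651, 878 and 1001 CPM at ZT0, at 1466, 1458 and 1377 CPM at ZT8 and at 674, 874 and 950.4 CPM at ZT16. The night values were 481, 703 and 667 CPM at ZT20, and at ZT24 CAT2 was back at 1057, 965 and 955 CPM. All 3 midday libraries of Bd21 lay above all others of that ecotype in NG. In Bd21-3 in NG the midday values were 2385, 2017 and 1738 CPM, against 1054, 1138 and 1124 CPM at ZT0 and 1321, 1279 and 1379 CPM at ZT16. They were 626, 383 and 612 CPM at ZT20 and 854, 905 and 951 CPM at ZT24. The change between ZTs passed the F test in both ecotypes in NG, with a range of 1.23 (adjusted p = 0.00259) in Bd21 and 1.94 (adjusted p = 2.39e-07) in Bd21-3 on the log2 scale. Of all 24109 genes tested, 29.8% passed this test in Bd21 in NG and 35.5% in Bd21-3 in NG. All adjusted p-values come from limma-trend on log2(CPM + 1) with Benjamini-Hochberg adjustment over all genes tested. A gene is said to have risen or fallen where the adjusted p was under 0.05, and log2FC is the fitted difference on this scale.

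**Figure D1:**
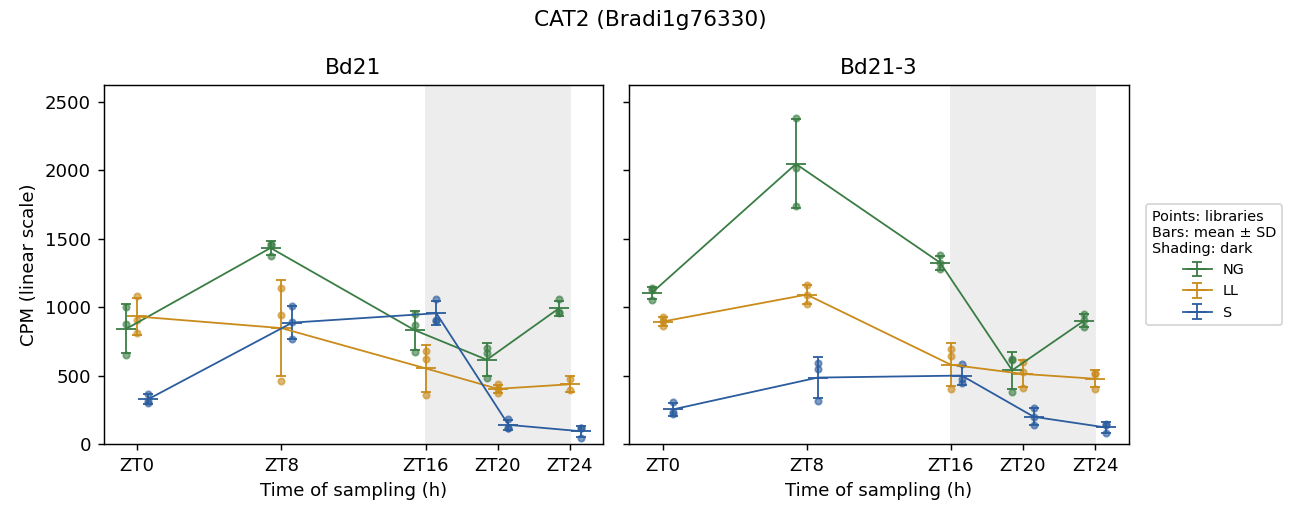
CAT2 in CPM (linear axis) against the time of sampling in hours, in Bd21 (left) and Bd21-3 (right), with points for libraries (shifted sideways by treatment), horizontal marks and bars for the mean ± SD and shading for the dark period. CAT2 means in S lay between 95.1 and 956 CPM in Bd21 and between 122 and 501 CPM in Bd21-3, highest at ZT16 and lowest at ZT24 in both ecotypes.

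CAT2 was lower in S than in LL at both dawns and at midnight in both ecotypes. At ZT0 in Bd21, the S libraries held 313, 370.2 and 302 CPM of CAT2 and the LL libraries 906, 812 and 1081 CPM. At ZT0 in Bd21-3, CAT2 was at 222, 235 and 308 CPM in S and at 898, 928 and 861 CPM in LL. Every submerged library was thus below every LL library at the first dawn. S over LL had a log2FC of -1.5 (SE 0.26, adjusted p = 1.88e-06) in Bd21, 2.83-fold lower, and -1.82 (SE 0.26, adjusted p = 1.62e-08) in Bd21-3, 3.54-fold lower.

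At midday and dusk CAT2 fell below LL only at ZT8 in Bd21-3 and was above it at ZT16 in Bd21. At ZT8 in Bd21, CAT2 was at 766, 891 and 1007 CPM in S and at 459, 1143 and 942 CPM in LL. The groups overlapped there, the first LL library lay apart from the other 2, and the log2FC of 0.16 (SE 0.26, 95% interval -0.36 to 0.68, adjusted p = 0.64) did not pass. At ZT8 in Bd21-3, the S values of CAT2 were 313, 552 and 595 CPM and the LL values 1024, 1165 and 1089 CPM. All submerged Bd21-3 libraries lay below all LL libraries, a fall of CAT2 with a log2FC of -1.22 (SE 0.26, adjusted p = 6.25e-05). At ZT16 in Bd21, CAT2 was at 907, 903 and 1059 CPM in S and at 625, 681 and 357 CPM in LL. This was the only one of the 10 comparisons in which CAT2 rose, with a log2FC of 0.84 (SE 0.26, adjusted p = 0.00523). Without the third LL library at that time it was 0.55 (adjusted p = 0.0975), and a fit of only the groups compared gave an adjusted p of 0.11. At ZT16 in Bd21-3, the S values were 477, 582 and 445 CPM and the LL values 403, 643 and 696 CPM, and the log2FC of -0.18 (95% interval -0.70 to 0.34, adjusted p = 0.60) did not pass.

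The gap between S and LL was present in both ecotypes in the night and at the second dawn. At ZT20 in Bd21, it was at 185, 120.3 and 119.5 CPM in S and at 400.1, 376 and 437 CPM in LL. At ZT20 in Bd21-3, it was at 262, 201.5 and 138 CPM in S and at 409, 604 and 529 CPM in LL. No submerged library reached the level of an LL library, with a log2FC of -1.54 (SE 0.26, adjusted p = 9.93e-07) in Bd21 and -1.38 (SE 0.26, adjusted p = 6.63e-06) in Bd21-3. At ZT24 in Bd21, the S libraries held 117, 119 and 48.8 CPM and the LL libraries 479 and 397 CPM. At ZT24 in Bd21-3, CAT2 was at 145, 78.6 and 144 CPM in S and at 517, 511 and 406 CPM in LL. These were the lowest CAT2 means of each ecotype, 4.90-fold below LL in Bd21 (log2FC -2.29, SE 0.29, adjusted p = 8.13e-10) and 4.00-fold below LL in Bd21-3 (log2FC -2.0, SE 0.26, adjusted p = 1.27e-09).

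Over the 10 comparisons of S with LL, CAT2 thus fell in 7, rose in 1 and did not pass in 2. Among all genes tested, 23.3% to 32.6% fell and 23.2% to 27.5% rose in a comparison. From ZT0 to ZT24 the shares that fell were 29.5%, 26.6%, 27.6%, 25.7% and 23.3% in Bd21 and 32.6%, 29.5%, 25.4%, 29.1% and 25.6% in Bd21-3. The shares that rose were 23.8%, 23.2%, 27.1%, 26.5% and 23.7% in Bd21 and 23.5%, 24.5%, 25.2%, 27.5% and 25.9% in Bd21-3. A gene was a DEG by the stricter limits of the study where its log2FC was 1.5 or more in size, its adjusted p below 5e-06 and its mean 15 CPM or more in 1 group. CAT2 was such a DEG, with lower values, in 4 comparisons, in which 4.16% to 4.71% of all genes were DEGs with lower values. Those shares were 3.02%, 2.89%, 3.93%, 4.39% and 4.16% in Bd21 and 4.32%, 5.04%, 4.67%, 5.54% and 4.71% in Bd21-3 from ZT0 to ZT24. CAT2 lay just outside the fold limit at ZT0 in Bd21. When each comparison was fitted on its own 2 groups, CAT2 was a DEG in 0 comparisons. The share of all genes that were DEGs in such fits was not counted, so this cannot be read as particular to CAT2. The fall was also present against NG, where CAT2 was lower in 9 of 10 comparisons (27.3% to 35.5% of all genes) and higher in none. At ZT24 it was 3.48 log2 units below NG in Bd21 (log2FC -3.48, adjusted p = 9.31e-19) and 2.92 below it in Bd21-3 (log2FC -2.92, adjusted p = 1.23e-15). At ZT16 in Bd21, where CAT2 was above LL, its log2FC over NG was 0.21 (adjusted p = 0.51). The comparisons of S with LL and with NG share the S libraries.

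CAT1 had a different course. In Bd21 in NG it was at 347, 530.1 and 581 CPM at ZT0, at 1246, 957 and 1112 CPM at ZT8 and at 716, 657 and 889.5 CPM at ZT16. The remaining NG values of Bd21 were 629.6, 923 and 833 CPM at ZT20 and 727, 628 and 765 CPM at ZT24. The mean was lowest at the first dawn and highest at midday in this ecotype. In Bd21-3 in NG, CAT1 was at 475, 645 and 522 CPM at ZT0, at 1067, 1069 and 963 CPM at ZT8 and at 1075, 1170.3 and 1047 CPM at ZT16. Later it was at 1049, 596 and 1002 CPM at ZT20 and at 378, 471 and 451 CPM at ZT24. The change between ZTs passed in both ecotypes, with ranges of 1.21 (adjusted p = 0.00782) in Bd21 and 1.34 (adjusted p = 5.87e-05) in Bd21-3 on the log2 scale. In Bd21 it no longer passed without the first NG library of ZT0, with a range of 0.98 (adjusted p = 0.0943).

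**Figure D2:**
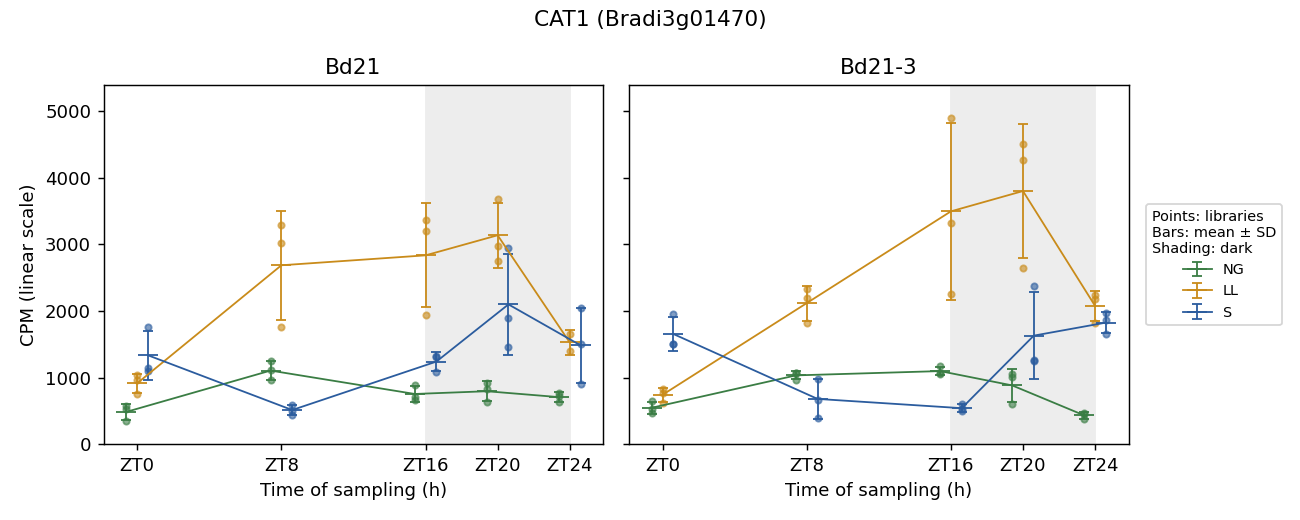
CAT1 in CPM (linear axis) against the time of sampling in hours, in Bd21 (left) and Bd21-3 (right), with points for libraries (shifted sideways by treatment), horizontal marks and bars for the mean ± SD and shading for the dark period. CAT1 means in LL climbed from 915 CPM at ZT0 to 3135 CPM at ZT20 in Bd21 and from 742 to 3798 CPM in Bd21-3. The S means lay below LL from ZT8 to ZT24, with overlapping libraries at ZT20 in Bd21 and at ZT24 in both ecotypes.

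CAT1 was higher in LL than in NG. At ZT8 the LL values were 1753, 3285 and 3016 CPM in Bd21 and 2196, 2331 and 1824 CPM in Bd21-3. At ZT16 they were 3365, 3200.1 and 1936 CPM in Bd21 and 2260.0, 3321 and 4900.0 CPM in Bd21-3. At ZT20 they reached 3685, 2972 and 2748 CPM in Bd21 and 2640.0, 4497 and 4257 CPM in Bd21-3. From ZT8 to ZT24 no NG library of either ecotype reached the LL libraries of its time. The log2FC of LL over NG was 1.24 (SE 0.27, adjusted p = 2.44e-04) at ZT8, 1.88 (SE 0.27, adjusted p = 3.26e-07) at ZT16 and 1.98 (SE 0.27, adjusted p = 3.98e-08) at ZT20 in Bd21. In Bd21-3 it was 1.03 (SE 0.27, adjusted p = 0.00262) at ZT8, 1.60 (SE 0.27, adjusted p = 4.34e-06) at ZT16 and 2.11 (SE 0.27, adjusted p = 9.29e-09) at ZT20. At ZT24, with LL values of 1659 and 1396 CPM in Bd21 and 2235, 2173 and 1819 CPM in Bd21-3, the log2FC was 1.11 (SE 0.31, adjusted p = 0.00272) and 2.26 (SE 0.27, adjusted p = 4.47e-10). The second-dawn level in Bd21-3 was 4.79-fold above NG. Whether LL over NG changed between ZTs was not tested.

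The first dawn gave the least firm of these calls. The LL values at ZT0 were 1034, 959 and 753 CPM in Bd21, with a log2FC over NG of 0.93 (SE 0.27, adjusted p = 0.0383), and 773, 621 and 831 CPM in Bd21-3, with a log2FC of 0.44 (95% interval -0.11 to 0.99, adjusted p = 1). The call in Bd21 was lost in a fit of only these groups (adjusted p = 0.10). It was also lost without the first or second NG library, at 0.71 (adjusted p = 0.377) and 1.01 (adjusted p = 0.0716), and without the first or second LL library, at 0.84 (adjusted p = 0.167) and 0.89 (adjusted p = 0.0992). In all, CAT1 rose in 9 of the 10 comparisons of LL with NG and was a DEG in 5 of them. The shares of all genes that rose were 1.68%, 16.3%, 9.54%, 12.2% and 16.8% in Bd21 and 0.00415%, 14%, 15.9%, 10.3% and 15.7% in Bd21-3 from ZT0 to ZT24. The shares of DEGs with higher values were 0%, 0.763%, 0.241%, 0.419% and 0.577% in Bd21 and 0%, 0.402%, 0.415%, 0.361% and 0.784% in Bd21-3.

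CAT2 moved in the opposite direction in LL. It fell in 5 of the 10 comparisons of LL with NG and rose in 0, while the shares of all genes that fell were 2.11%, 17.9%, 10.9%, 16.7% and 23.6% in Bd21 and 0.0124%, 16.3%, 19%, 14.6% and 19.5% in Bd21-3 from ZT0 to ZT24. At ZT8 the log2FC was -0.86 (SE 0.26, adjusted p = 0.00757) in Bd21 and -0.89 (SE 0.26, adjusted p = 0.00621) in Bd21-3. At ZT16 it was -1.23 (SE 0.26, adjusted p = 1.64e-04) in Bd21-3, and at ZT24 -1.18 (SE 0.29, adjusted p = 8.80e-04) in Bd21 and -0.92 (SE 0.26, adjusted p = 0.00358) in Bd21-3. At ZT16 in Bd21 it was -0.63 (adjusted p = 0.0792), or -0.80 (adjusted p = 0.0363) without the second LL library, and at ZT20 -0.59 (adjusted p = 0.0811), or -0.76 (adjusted p = 0.0436) without the first NG library. The midday fall in Bd21 rests on the first LL library of that time, without which it was -0.47 (adjusted p = 0.224). In a fit of only those groups its adjusted p was 0.11, and quantile normalization gave -0.43 in Bd21 and -0.28 in Bd21-3, neither of which passed.

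Submergence set CAT1 against this raised LL level, and its response turned between sampling times. At ZT0 in Bd21, CAT1 was at 1142, 1763 and 1098 CPM in S, above all 3 LL libraries, but the log2FC of 0.52 (SE 0.27, 95% interval -0.03 to 1.07, adjusted p = 0.10) did not pass. At ZT0 in Bd21-3, the S values were 1510.1, 1496 and 1955 CPM. There CAT1 rose over LL with a log2FC of 1.15 (SE 0.27, adjusted p = 2.57e-04), 2.23-fold higher.

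By midday the order was reversed. At ZT8 the S libraries held 499.8, 446 and 594 CPM of CAT1 in Bd21 and 390.1, 670.3 and 979 CPM in Bd21-3. All of these lay far below the LL libraries, with a log2FC of -2.34 (SE 0.27, adjusted p = 5.28e-11) in Bd21, 5.07-fold lower, and -1.73 (SE 0.27, adjusted p = 1.85e-07) in Bd21-3, 3.31-fold lower. At ZT16 the S values were 1306, 1330.5 and 1082 CPM in Bd21 and 494, 605 and 523 CPM in Bd21-3. CAT1 was below LL in both ecotypes, with a log2FC of -1.16 (SE 0.27, adjusted p = 2.62e-04) in Bd21 and -2.62 (SE 0.27, adjusted p = 8.48e-13) in Bd21-3, the largest response of the pair. The dusk call in Bd21 was lost in a fit of only those groups (adjusted p = 0.0907).

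At midnight CAT1 was still lower in S than in LL, and at the second dawn the difference did not pass. At ZT20 CAT1 was at 2940.1, 1454 and 1900.1 CPM in S in Bd21 and at 2377, 1260.4 and 1250.2 CPM in Bd21-3. One submerged library of each ecotype was thus far above the other 2, and in Bd21 the S and LL groups overlapped. The log2FC was -1.25 (SE 0.27, adjusted p = 7.83e-05) in Bd21-3 and -0.63 (SE 0.27, adjusted p = 0.0475) in Bd21. The Bd21 value lay at the threshold and is not a firm call. With 1 library left out it was -0.51 (adjusted p = 0.173) without the first and -0.66 (adjusted p = 0.0692) without the second LL library, and -0.40 (adjusted p = 0.288) without the second and -0.59 (adjusted p = 0.111) without the third S library. A fit of only those groups gave an adjusted p of 0.15, edgeR gave -0.56 (adjusted p = 0.068), and quantile normalization turned its direction to 0.068 (adjusted p = 0.85). At ZT24 the S values were 1505, 2039.7 and 907 CPM in Bd21 and 1856, 1648 and 1969 CPM in Bd21-3, both overlapping with LL. The log2FC was -0.11 (95% interval -0.73 to 0.50, adjusted p = 0.80) and -0.18 (95% interval -0.73 to 0.36, adjusted p = 0.61).

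Over the 10 comparisons of S with LL, CAT1 fell in 6, rose in 1 and did not pass in 3, read against the same shares of all genes as for CAT2. It was a DEG with lower values in 3, at ZT8 in both ecotypes and at ZT16 in Bd21-3, where 2.89% to 5.04% of all genes were such DEGs. In fits of only the groups compared it was a DEG in 0, again without a share of all genes to set beside it. Against NG the direction was mostly the opposite. CAT1 was higher in S than in NG in 7 of 10 comparisons (22.1% to 32.8% of all genes) and lower in 3. It was 3.02-fold above NG at ZT0 in Bd21-3 (log2FC 1.59, adjusted p = 1.00e-06) and 4.21-fold above it at ZT24 (log2FC 2.08, adjusted p = 9.31e-10). It fell below NG at ZT8 in Bd21 (log2FC -1.11, adjusted p = 4.12e-04) and at ZT8 (log2FC -0.70, adjusted p = 0.0229) and ZT16 (log2FC -1.02, adjusted p = 9.18e-04) in Bd21-3. At ZT16, ZT20 and ZT24 in Bd21 and at ZT20 and ZT24 in Bd21-3 the sign of the CAT1 response thus depended on the control, with log2FC over NG of 0.72, 1.36, 1.00, 0.86 and 2.08.

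**Figure D3:**
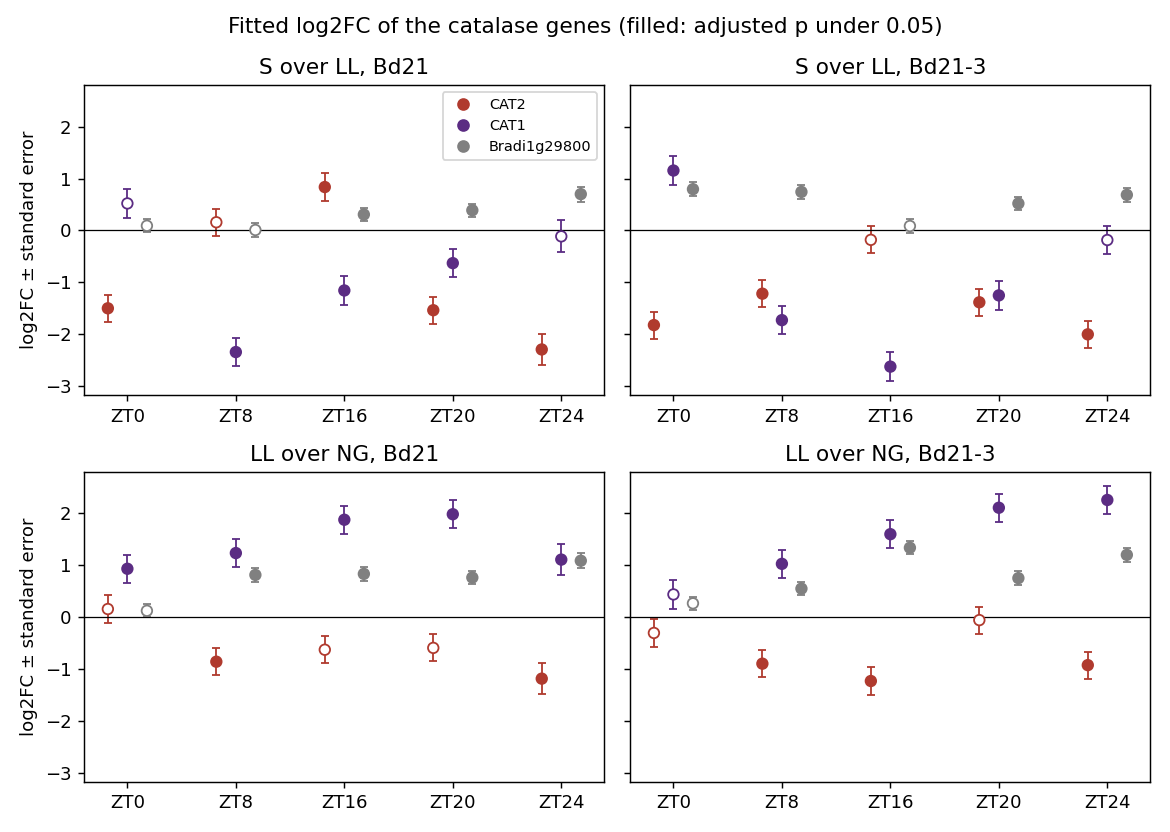
Fitted log2FC with standard errors for CAT2, CAT1 and the other catalase match (Bradi1g29800), S over LL in the upper panels and LL over NG in the lower panels, at each ZT and for each ecotype, with filled symbols for an adjusted p under 0.05. CAT1 lies above 0 in every LL over NG comparison and reaches -2.62 in S over LL, while CAT2 in S over LL runs from -2.29 to 0.84.

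The response of both genes to submergence changed between the sampling times. Later samples had also been under water longer, so time of day and length of submergence cannot be told apart. In the F test over the 5 log2FC of S over LL, those of CAT2 spanned 3.13 log2 units in Bd21 (adjusted p = 1.26e-10) and 1.82 in Bd21-3 (adjusted p = 2.41e-04). Those of CAT1 spanned 2.86 log2 units in Bd21 (adjusted p = 6.71e-08) and 3.78 in Bd21-3 (adjusted p = 4.33e-12). Of all genes tested, 54% passed this test in Bd21 and 53.3% in Bd21-3, so passing it did not set the catalases apart.

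Zeniths, the times at which a mean peaked, are descriptions with no test. The CAT2 zenith was at ZT8 in NG in both ecotypes and at ZT16 in S in both, but the ZT16 and ZT8 libraries in S overlapped. The log2FC of ZT16 over ZT8 in S was 0.11 (95% interval -0.41 to 0.63, adjusted p = 0.83) in Bd21 and 0.09 (95% interval -0.43 to 0.61, adjusted p = 0.86) in Bd21-3, so a later zenith of CAT2 was not distinguishable from a plateau. In LL it was at ZT0 in Bd21, overlapping with ZT8, and at ZT8 in Bd21-3. From its zenith to ZT24 the CAT2 mean fell 10.1-fold in S in Bd21 and 4.09-fold in Bd21-3. The F test on the change between ZTs in S gave an adjusted p of 8.34e-21 in Bd21 and 1.13e-10 in Bd21-3, where 72.9% and 68.9% of all genes passed.

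The CAT1 zenith was at ZT8 in Bd21 and ZT16 in Bd21-3 in NG, and at ZT20 in both ecotypes in LL. In S it was at ZT20 in Bd21 and at ZT24 in Bd21-3, in both cases overlapping with the next highest time. The lowest CAT1 mean in S was in the day, 513 CPM at ZT8 in Bd21 and 541 CPM at ZT16 in Bd21-3. From midday to dusk CAT1 rose in submerged Bd21, with a log2FC of ZT16 over ZT8 of 1.27 (SE 0.27, adjusted p = 4.35e-04), and did not pass in submerged Bd21-3 (log2FC -0.24, 95% interval -0.78 to 0.31, adjusted p = 0.59). Of all genes, 16.1% and 22.6% passed that comparison in either direction. The rise in Bd21 was lost in a fit of only those groups (adjusted p = 0.0684). For CAT2, ZT16 was below ZT8 in Bd21-3 in LL (log2FC -0.95, SE 0.26, adjusted p = 0.0148, against 5.71% of all genes), a call lost in a fit of only those groups (adjusted p = 0.17). It was also lost without the second or the third library of ZT8, at -0.90 (adjusted p = 0.0623) and -0.95 (adjusted p = 0.0542), or without the first of ZT16, at -0.71 (adjusted p = 0.177). In Bd21 in LL the CAT2 log2FC of -0.57 (adjusted p = 0.18) became -0.96 (adjusted p = 0.0199) without the first library of ZT8.

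Between the dawns CAT2 changed in 4 of 6 comparisons and CAT1 in 1. CAT2 was lower at ZT24 than at ZT0 in S, with a log2FC of -1.88 (SE 0.26, adjusted p = 7.11e-09) in Bd21 and -1.09 (SE 0.26, adjusted p = 3.06e-04) in Bd21-3, where 54.1% and 52.4% of all genes passed in either direction. It was also lower in LL, by -1.09 (SE 0.29, adjusted p = 0.00425) in Bd21 and -0.91 (SE 0.26, adjusted p = 0.00546) in Bd21-3, where 25.2% and 29% of all genes passed. The LL value of Bd21 was -0.95 (adjusted p = 0.0896) without the second library of ZT24. In NG the CAT2 log2FC was 0.26 (95% interval -0.27 to 0.78) in Bd21 and -0.29 (95% interval -0.81 to 0.23) in Bd21-3, neither of which passed. CAT1 rose in Bd21-3 in LL (log2FC 1.49, SE 0.27, adjusted p = 1.82e-05). In Bd21 in LL its log2FC of 0.75 (SE 0.31, adjusted p = 0.0633) did not pass, but did with edgeR (0.78, adjusted p = 0.0425), in a fit of only those groups (adjusted p = 0.0288) and after quantile normalization (1.22, adjusted p = 0.00109). In S its log2FC was 0.11 (95% interval -0.44 to 0.66) in Bd21 and 0.15 (95% interval -0.40 to 0.70) in Bd21-3, and quantile normalization called both, at 0.65 (adjusted p = 0.0276) and 0.77 (adjusted p = 0.00957).

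Within a library the 2 genes can be set against each other without their lengths as long as only shifts between groups are read. The log2 ratio of CAT1 to CAT2 (CPM + 1) had group means from -1.06 to 0.70 in NG, from -0.28 to 2.94 in LL and from -0.79 to 3.98 in S. In submerged Bd21 it was 1.99 ± 0.22 (SD, n = 3) at ZT0, -0.79 ± 0.19 at ZT8, 0.37 ± 0.29 at ZT16, 3.85 ± 0.23 at ZT20 and 3.98 ± 0.27 at ZT24. In submerged Bd21-3 it was 2.70 ± 0.06 at ZT0, 0.44 ± 0.24 at ZT8, 0.11 ± 0.10 at ZT16, 3.00 ± 0.31 at ZT20 and 3.94 ± 0.38 at ZT24. The balance of the submerged plants thus swung toward CAT2 at midday and dusk and toward CAT1 at midnight and at both dawns. In LL it moved toward CAT1 from ZT0 to ZT20, from -0.03 ± 0.43 to 2.94 ± 0.28 in Bd21 and from -0.28 ± 0.27 to 2.86 ± 0.16 in Bd21-3. At ZT8 and ZT16 the ratio was lower in every S library than in every LL library of its ecotype, and at ZT0 and ZT24 it was higher in every one. The NG means at ZT8 and ZT16 were -0.38 and -0.14 in Bd21 and -0.98 and -0.27 in Bd21-3. Against these, the S mean was lower only at ZT8 in Bd21, so the direction at midday and dusk depended on the control. These ratios are descriptions with no test.

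**Figure D4:**
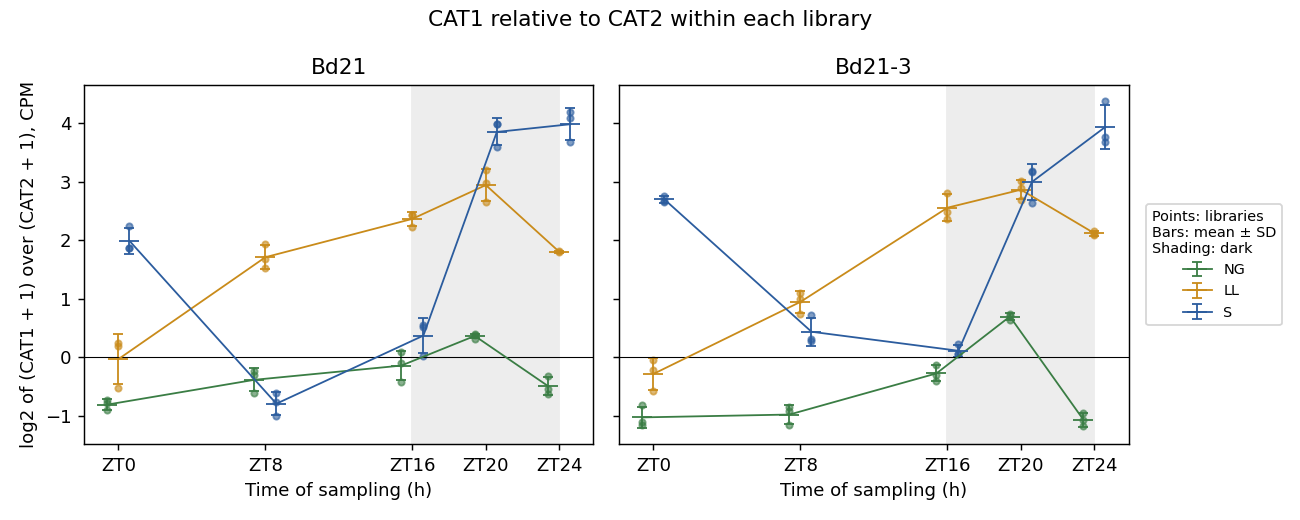
The log2 ratio of CAT1 to CAT2 (CPM + 1) within each library against the time of sampling in hours, in Bd21 (left) and Bd21-3 (right), with points for libraries (shifted sideways by treatment), horizontal marks and bars for the mean ± SD and shading for the dark period. The S means drop from 1.99 and 2.70 at ZT0 to -0.79 and 0.44 at ZT8 and end at 3.98 and 3.94 at ZT24, while the NG means stay between -1.06 and 0.70.

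The difference between ecotypes in level passed in 3 of 30 comparisons of these genes, all in S. CAT2 was higher in submerged Bd21 than in submerged Bd21-3 at ZT8 (log2FC 0.91, SE 0.26, adjusted p = 0.00743) and at ZT16 (log2FC 0.94, SE 0.26, adjusted p = 0.00426). CAT1 was higher in submerged Bd21 at ZT16 (log2FC 1.19, SE 0.27, adjusted p = 4.59e-04), where every Bd21 library exceeded every Bd21-3 library for both genes. Of all genes, 20.8% differed at ZT8 and 27.6% at ZT16 in either direction. None of the 10 comparisons in LL or NG passed for either gene, where 4.94% to 14.3% of all genes passed in a comparison, so that does not set the catalases apart. The lowest adjusted p was 0.0679, for CAT1 in NG at ZT24 (log2FC 0.71). In fits of only the groups compared, 3 NG comparisons passed, CAT2 at ZT16 (log2FC -0.69, adjusted p = 0.0161) and CAT1 at ZT16 (log2FC -0.55, adjusted p = 0.0262) and ZT24 (adjusted p = 0.00711). The CAT2 difference at ZT8 in S was 0.62 (adjusted p = 0.143) without the first submerged Bd21-3 library and had an adjusted p of 0.0927 in a fit of only those groups.

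Whether the response itself differed between ecotypes was tested as an interaction, taken as the value of Bd21-3 less that of Bd21 for S over LL. It passed for CAT2 at ZT8 (-1.38, SE 0.37, adjusted p = 0.00891), where 9.79% of all genes passed in either direction. It passed for CAT1 at ZT16 (-1.47, SE 0.39, adjusted p = 0.00665), where 11.2% did. The CAT2 interaction at ZT16 (-1.02, SE 0.37, adjusted p = 0.0627) did not pass, but did without the second LL library of Bd21 (-1.19, adjusted p = 0.0362) or the first of Bd21-3 (-1.26, adjusted p = 0.0254). At the dawns and at ZT20 no interaction passed. Of all genes, 2.73%, 4.09% and 2.39% passed at ZT0, ZT20 and ZT24, so not passing there does not set the catalases apart. The CAT2 values were -0.32 (95% interval -1.06 to 0.42), 0.15 (95% interval -0.59 to 0.89) and 0.29 (95% interval -0.49 to 1.08) at ZT0, ZT20 and ZT24. The CAT1 values at these times were 0.63 (95% interval -0.14 to 1.41), -0.62 (95% interval -1.40 to 0.15) and -0.07 (95% interval -0.89 to 0.75), of which that at ZT20 passed after quantile normalization (-1.26, adjusted p = 0.0375). The CAT2 call at ZT8 was lost without the first LL library of Bd21 (-0.98, adjusted p = 0.0982) or the first S library of Bd21-3 (-1.09, adjusted p = 0.0679). In fits of only the groups compared, the adjusted p was 0.10 for CAT2 at ZT8 and 0.18 for CAT1 at ZT16.

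Ranked by mean over the 30 groups, CAT2 ran from 2047 CPM in Bd21-3 in NG at ZT8, followed by 1433 CPM in Bd21 in NG at ZT8, down to 95.1 CPM in submerged Bd21 at ZT24. Of its 29 pairs of neighbors in this order, the library ranges overlapped in 26. The 6 lowest means were all of submerged plants, at ZT0, ZT20 and ZT24 in both ecotypes, though single libraries of other groups, such as 313 CPM in submerged Bd21-3 at ZT8 and 357 CPM in Bd21 in LL at ZT16, lay within the range of the highest of these groups. CAT1 ran from 3798 CPM in Bd21-3 in LL at ZT20 to 433 CPM in Bd21-3 in NG at ZT24, and all 29 pairs of neighbors overlapped. The 6 highest CAT1 groups were LL at ZT8, ZT16 and ZT20 in both ecotypes.

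The other catalase match, Bradi1g29800, mostly rose in S while CAT2 mostly fell. Its means were 188 to 298 CPM in NG, 257 to 504 CPM in LL and 271 to 782 CPM in S. In submerged plants it was lowest at ZT0, at 271 ± 13.9 CPM (SD, n = 3) in Bd21 and 461 ± 24.9 CPM in Bd21-3, and highest at ZT24, at 684 ± 67.8 CPM and 782 ± 93.5 CPM. It rose over LL in 7 of 10 comparisons and fell in 0, where 23.2% to 27.5% of all genes rose in a comparison. At ZT24 its log2FC was 0.70 (SE 0.14, adjusted p = 4.20e-05) in Bd21 and 0.69 (SE 0.13, adjusted p = 7.22e-06) in Bd21-3. It also rose in LL over NG in 8 of 10 comparisons, where 0.00415% to 16.8% of all genes rose. It was a DEG in none of these, its largest log2FC being 0.80 over LL and 1.34 in LL over NG. The ecotypes differed early, with a log2FC over LL in Bd21 of 0.09 at ZT0 and 0.01 at ZT8 against 0.80 and 0.74 in Bd21-3. Its interaction passed at 2 of 5 times, higher in Bd21-3, where 2.39% to 11.2% of all genes passed in either direction. Its level was lower in Bd21 in 3 of 15 comparisons, where 4.94% to 27.6% of all genes passed. Over the 30 group means of log2(CPM + 1), which come from the same libraries, its Pearson r was -0.81 with CAT2 and 0.51 with CAT1, and that between CAT1 and CAT2 was -0.37.

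Most of the photorespiration matches were lower in submerged plants. Of 20 matches tested, 14 were DEGs with lower values at 1 or more of the 10 comparisons of S with LL and 1 with higher values, against 11.2% and 9.12% of all genes. In single comparisons 11 to 16 of the 20 fell, and the list's median log2FC ran from -0.45 to -2.12, with a median over all genes of -0.12 to 0.02. By mean absolute log2FC over the 10 comparisons PLGG1 (Bradi3g34517), the plastid transporter of glycolate and glycerate, led the list with 3.55, ahead of PGLP1 with 3.51. The PLGG1 mean at ZT20 was 2.58 CPM in S against 118 CPM in LL in Bd21 and 3.04 against 179 CPM in Bd21-3. PGLP1 (Bradi5g14210), the phosphatase that makes glycolate, had a log2FC of -5.47 in Bd21 and -4.59 in Bd21-3 at ZT24. The T protein of glycine decarboxylase (GLDT, Bradi5g22290) had a log2FC of -4.18 and -4.15 there, and its P protein (GLDP2, Bradi2g48010) one of -4.09 and -3.73. The fall of these genes was shallower at ZT0 than at ZT24, and at ZT0 GLDT had a log2FC of -0.86 in Bd21 and -1.06 in Bd21-3. For PLGG1 and GLDP2, ZT0 was not the shallowest time. PLGG1 had a log2FC of -2.51 and -3.35 at ZT0 but of -0.99 and -2.52 at ZT8. GLDP2 had one of -1.39 and -1.82 at ZT0 but of -0.43 and -1.54 at ZT8.

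The glycolate oxidases, which release the peroxide, were split, and they are named here after their values were seen. The match of GOX1 (Bradi1g58480) had a log2FC of S over LL of -2.26 in Bd21 and -2.95 in Bd21-3 at ZT24, and that of GOX2 (Bradi1g06430) one of -1.86 and -2.50. At ZT8 in Bd21, where CAT2 did not pass, the log2FC of these oxidase matches was -0.35 and 0.01. At ZT16 it was -1.13 and -0.75 in Bd21, where CAT2 rose, and -1.10 and -0.61 in Bd21-3, where CAT2 did not pass. The match of GOX3 (Bradi5g22250) was the 1 DEG of the list with higher values, with a log2FC of 2.24 in Bd21 and 1.27 in Bd21-3 at ZT24, and it rose in 9 of 10 comparisons.

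Other peroxide-removing systems moved in both directions. Of 19 matches of the ascorbate-glutathione cycle, 3 (15.8%) were DEGs with higher and 4 (21.1%) with lower values in 1 or more comparisons, beside 9.12% and 11.2% of all genes. MDAR2 (Bradi3g42760), which regenerates ascorbate, was a DEG in 8 comparisons, with means of 99.2 to 218 CPM in S and 11.5 to 34.9 CPM in LL. A match of thylakoid ascorbate peroxidase (TAPX, Bradi3g45700) had a log2FC of 0.12 in Bd21 and -0.04 in Bd21-3 at ZT0 and of -3.63 and -3.28 at ZT24. The other TAPX matches differed from it. Bradi5g10490 rose in 7 comparisons, in 1 of them as a DEG, and fell in 0, while Bradi4g41180 rose in 0 and fell in 0. Glutathione reductase GR1 (Bradi3g55030) had a log2FC of 1.67 and 1.91 at ZT0. APX4 (Bradi5g20670) fell in all 10 comparisons but was a DEG only at ZT8 in Bd21-3 (log2FC -1.68). Of 12 peroxiredoxins and glutathione peroxidases, 7 (58.3%) were DEGs with lower and 3 (25%) with higher values. A PRXIIE match (Bradi3g06750) had means of 0.619 to 7.49 CPM in S against 20.8 to 132 CPM in LL, and PRXIIF (Bradi2g09910) means of 0.851 to 13.3 CPM against 25.5 to 40.6 CPM. Another PRXIIE match, Bradi1g35660, fell in 3 comparisons, rose in 0 and was a DEG in 0. PRXQ (Bradi1g46622) had a log2FC of -2.59 and -3.02 at ZT24, while GPX6 (Bradi3g51010) was higher in S by a log2FC of 1.45 to 3.96. Among 6 superoxide dismutases, enzymes that produce peroxide, the 1 DEG (16.7%) was FSD2 (Bradi1g50550), with a log2FC of -1.71 at ZT8 in Bd21-3. FSD2 fell in all 10 comparisons, with a log2FC of -0.64 at the least.

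Peroxisomal genes outside photorespiration held DEGs in both directions, read against the same 9.12% and 11.2% of all genes. Of 14 matches of beta-oxidation, 2 (14.3%) were DEGs with higher values (Bradi2g34610, a match of ACX4, and Bradi4g14090, a match of ACX2) and 1 (7.14%) with lower values (Bradi2g35780, also a match of ACX4). These acyl-CoA oxidases are the peroxide-producing step. Of 19 import factors and catalase partners, 1 (5.26%) was a DEG in each direction. PEX13 (Bradi1g06440), part of the import channel, was a DEG with higher values, with a log2FC of 1.93 in Bd21 and 2.12 in Bd21-3 at ZT0. LSD1 (Bradi3g14290), a zinc finger protein that binds catalase in Arabidopsis, was a DEG with lower values at 6 of the comparisons, with means of 2.52 to 11.4 CPM in S. NCA1, needed for catalase activity in Arabidopsis, has 2 matches, of which Bradi1g09110 passed in none of the 10 comparisons and Bradi1g33800 rose in 5 and fell in 1.

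The genes whose group means resembled those of CAT2 most closely, among 6149 that carry a symbol and reach a mean of 15 CPM in some group, belong to the chloroplast. They were Bradi1g04810, a match of the oxygenase PTC52 (r = 0.95 over the 30 groups), the photosystem I subunit PSAF (Bradi1g06890, r = 0.94), thioredoxin TRXF1 (Bradi2g58440, r = 0.94), starch synthase SS2 (Bradi3g59440, r = 0.93) and the photosystem I subunit PSAH2 (Bradi2g16810, r = 0.93). By Spearman's rho only 2 of these remained among the first 5. For CAT1 the likeness was looser, led by CYP71B7 (Bradi4g05000, r = 0.85), UGT85A2 (Bradi3g58700, r = 0.83), PP2-B10 (Bradi1g00970, r = 0.83), PLT2 (Bradi3g59300, r = 0.81) and BGLU44 (Bradi1g19270, r = 0.80). Of these, 4 remained by Spearman's rho. The correlations describe group means that share libraries and the same 30 conditions.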

How the data were processed

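RNA-seq of aboveground tissue was analysed in 89 libraries of 30 groups, grouped by their labels. Per the sources, the authors aligned reads to version 3.0 of the Bd21 genome with HISAT2 2.1.0, used SAMtools 1.12, counted with HTSeq and normalized with edgeR, and merged repeated runs of some libraries. The deposited signal values are read counts scaled by the authors to an effective library size. They sum to 843958 to 1243716 per library, not to the fixed total that CPM, assumed in the plan, would give. Divided by what 1 read is worth in its library (0.0608 to 0.261 CPM), 100% of values came out as whole reads within a tolerance of 0.001. The same table holds the authors' log2 fold changes and adjusted p-values, which were not used. No per-sample column was left unmapped (0). Genes reaching 1 CPM in 3 or more libraries (24109 of 24467) were fitted with limma-trend (limma 3.58.1, R 4.3.3) on log2(CPM + 1), with 1 term per group over all groups and p adjusted by Benjamini-Hochberg. Each gene thus had 1 estimate of the spread over all 30 groups. No labels say that pools came from separate trays or days, so p-values measure the spread between these libraries. Replicates were compared in 88 pairs, and 0 were identical. The members and lists were chosen with earlier results of these data known. Lists are by best Arabidopsis match, given for 19689 genes, 8483 of them with a symbol. Named genes are both members, every other catalase match, up to 4 DEGs of each list with the largest mean absolute log2FC, and the 5 genes with a symbol most like each member by Pearson r. Of 6 leaf, 6 root and 5 guard cell markers, 3, 2 and 5 were matched. The fit was tested on simulated data. Alternatives were pseudocounts of 0.25 and 5, no filter, quantile normalization, a filter at 15 CPM, scaling by median of ratios, a replicate block, leaving out single libraries, the quasi-likelihood test of edgeR 4.0.16 with TMM, run on recovered reads, separate fits of the compared groups, NG as the control, an adjusted p under 0.05 alone for DEGs, and Spearman's rho. No sequences or coordinates of the genes were used.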

Additional observations from a re-analysis of the deposited data

Results flagged for a closer look

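The interaction of the response to submergence with ecotype passed for each catalase at 1 time in the fit over all groups, and both calls were lost in fits of only the groups compared (adjusted p = 0.10 for CAT2 and 0.18 for CAT1). For CAT2 at ZT8 the interaction was -1.38 (SE 0.37, adjusted p = 0.00891), since CAT2 fell against LL in Bd21-3 (log2FC -1.22) and its log2FC in Bd21 was 0.16. This call was also lost without the first LL library of Bd21 (-0.98, adjusted p = 0.0982) or the first S library of Bd21-3 (-1.09, adjusted p = 0.0679). For CAT1 at ZT16 it was -1.47 (SE 0.39, adjusted p = 0.00665), with a log2FC of -2.62 in Bd21-3 and -1.16 in Bd21. Of all genes, 9.79% passed at ZT8 and 11.2% at ZT16. Both were looked for at 5 times in both genes.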

How the results depend on the processing

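Of 120 tested results for the catalases, 57 were called, and the calls were those of the report under pseudocounts of 0.25 and 5, no filter, a filter at 15 CPM and median of ratios scaling. Quantile normalization moved the median of all genes by over 0.1 in 15 of 52 comparisons (by -0.16 to 0.20). It turned CAT1 S over LL in Bd21 at ZT20 to 0.068 and ended the calls of CAT2 LL over NG at ZT8 (-0.43 in Bd21, -0.28 in Bd21-3). It added calls for CAT1 in Bd21 over Bd21-3 in S at ZT20 (1.22), the interactions of CAT2 at ZT16 (-0.999) and CAT1 at ZT20 (-1.26), CAT1 ZT16 over ZT8 in Bd21-3 LL (1.125), and CAT1 ZT24 over ZT0 in Bd21 S (0.65), Bd21 LL (1.22) and Bd21-3 S (0.77).

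With NG as the control, the log2FC reversed for CAT2 in Bd21 at ZT8 (-0.70) and for CAT1 in Bd21 at ZT16 (0.72), ZT20 (1.36) and ZT24 (1.00) and in Bd21-3 at ZT20 (0.86) and ZT24 (2.08). CAT2 in Bd21 at ZT16 no longer passed (0.21), CAT1 in Bd21 at ZT0 (1.46) and CAT2 in Bd21-3 at ZT16 (-1.41) now passed, and CAT1 was a DEG with higher values in 2 and with lower values in 0 comparisons. The share of all genes that were DEGs against NG was not counted. By an adjusted p under 0.05 alone, CAT2 was higher in 1 and lower in 7 and CAT1 higher in 1 and lower in 6.

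Fits of only the groups compared, which have fewer samples behind each spread, kept the values but ended the calls of S over LL for CAT2 (0.84) and CAT1 (-1.16) in Bd21 at ZT16 and CAT1 in Bd21 at ZT20 (-0.63), LL over NG in Bd21 for CAT1 at ZT0 (0.93) and CAT2 at ZT8 (-0.86), CAT2 between ecotypes in S at ZT8 (0.91), both interactions (-1.38 and -1.47), ZT16 over ZT8 for CAT1 in Bd21 S (1.27) and CAT2 in Bd21-3 LL (-0.95), and the change of CAT2 between ZTs in Bd21 LL (range 1.20). They added LL over NG of CAT2 in Bd21 at ZT20 (-0.59), ecotype differences in NG for CAT2 at ZT16 (-0.69) and CAT1 at ZT16 (-0.55) and ZT24 (0.71), CAT2 ZT16 over ZT8 in Bd21 NG (-0.80) and CAT1 ZT24 over ZT0 in Bd21 LL (0.75). They left 0 DEGs for either gene, and the share of all genes that were DEGs in these fits was not counted.

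edgeR on the reads ended the call of CAT1 S over LL in Bd21 at ZT20 (-0.56) and added the interaction of CAT2 at ZT16 (-1.02) and CAT1 ZT24 over ZT0 in Bd21 LL (0.78). The deviations of same-numbered S and LL libraries had a correlation over 0.1 in 5 of 29 pairs (range -0.66 to 0.44, median -0.04). This gave no sign of pairing by number. With so few libraries per group it cannot show that same-numbered pools were handled apart, and NG was not included. The replicate block changed the calls from 57 to 56, ending that of CAT1 S over LL in Bd21 at ZT20 (-0.63, adjusted p = 0.0509).

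Leaving out 1 library changed the call of 13 of 124 results. The ranges were 0.71 to 1.08 for CAT1 LL over NG in Bd21 at ZT0, -0.90 to -0.40 for CAT1 S over LL in Bd21 at ZT20, 0.98 to 1.36 for the change of CAT1 between ZTs in Bd21 NG, 0.62 to 1.08 for CAT2 between ecotypes in S at ZT8, -1.12 to -0.47, -0.80 to -0.34 and -0.76 to -0.49 for CAT2 LL over NG in Bd21 at ZT8, ZT16 and ZT20, 0.55 to 1.01 for CAT2 S over LL in Bd21 at ZT16, -0.96 to -0.28 and -1.10 to -0.71 for CAT2 ZT16 over ZT8 in LL in Bd21 and Bd21-3, -1.22 to -0.95 for CAT2 ZT24 over ZT0 in Bd21 LL, and -1.64 to -0.98 and -1.26 to -0.73 for the CAT2 interactions at ZT8 and ZT16. The 124 results include counts of DEGs in S over LL, which were not scored as changed though they moved. The count of comparisons with CAT2 as a DEG with lower values, 4 in the main fit, ran from 3 to 5. That of CAT1, 3 in the main fit, ran from 2 to 3. Where 1 library of Bd21 in LL at ZT24 was left, it was assumed to vary like the other groups. The cause of these changes was not tested. At 406 or more reads per library, depth limited neither gene.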
